A study of Mus musculus with 9 samples.

Results

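Kruppel-like factors (KLFs) are transcription factors with 3 zinc fingers, and 10 of their genes were followed here across pressure-loaded mouse hearts. The 10 genes, Klf2, Klf3, Klf4, Klf5, Klf6, Klf9, Klf10, Klf11, Klf13 and Klf15, were chosen by name, and each had 1 probe set among the 20239 genes named on the array. Whole hearts of male C57BL/6 mice were measured on 9 Affymetrix arrays, 1 heart per array, in 3 groups of 3. Every mouse, including the controls, received an adeno-associated virus (AAV) at 8 weeks of age. Its cargo was under a myosin light chain (MLC) promoter, which is meant to drive it in heart muscle cells, whereas the arrays read all cells of the heart. Surgery came 4 weeks after the virus and the hearts were frozen 4 weeks after surgery. The first group had sham surgery and the luciferase virus (AAV-Luc). The second had transaortic constriction (TAC), a narrowing of the aorta that loads the left ventricle with pressure, and the same luciferase virus. The third had TAC and a virus for amino acids 1 to 201 of histone deacetylase 4, here HDAC4-NT. No group had sham surgery with HDAC4-NT, so the fragment was compared with luciferase in loaded hearts only.

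KLFs bind GC-rich and CACCC sequences through their zinc fingers, and the rest of each protein decides whether it activates or represses. Klf2, Klf4, Klf5 and Klf6 belong to a branch that mostly activates, Klf3 recruits the corepressor CtBP, and Klf9, Klf10, Klf11 and Klf13 recruit the corepressor Sin3. Klf15 stands apart, and in heart muscle it is known as a regulator of fat and branched-chain amino acid use and of daily rhythms in repolarisation. Several KLFs are early response genes. Endothelial cells switch on Klf2 and Klf4 under flow, through the kinase ERK5 and MEF2 transcription factors, and class IIa histone deacetylases such as HDAC4 repress MEF2.

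The sequences upstream of the 5 genes that passed the test in at least 1 comparison are shown first, as the stretch that regulators of these genes could read. Windows of 250 bases before the transcription start were taken from RefSeq promoters of GRCm38.p6 for 8 of the 10 genes, and Klf5 and Klf10 were not matched. Each is written 5' to 3' on the strand of its gene. Capitals mark a MEF2 site in Klf2 and the E-box CACGTG, which the clock proteins CLOCK and ARNTL can bind, in the other 4.
Klf2 (chr8:72318812-72319061, plus strand): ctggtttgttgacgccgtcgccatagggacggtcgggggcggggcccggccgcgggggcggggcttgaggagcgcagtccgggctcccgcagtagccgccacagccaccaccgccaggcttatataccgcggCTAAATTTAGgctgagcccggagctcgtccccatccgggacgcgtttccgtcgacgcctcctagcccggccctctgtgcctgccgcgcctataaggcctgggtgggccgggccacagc
Klf4 (chr4:55532476-55532725, minus strand): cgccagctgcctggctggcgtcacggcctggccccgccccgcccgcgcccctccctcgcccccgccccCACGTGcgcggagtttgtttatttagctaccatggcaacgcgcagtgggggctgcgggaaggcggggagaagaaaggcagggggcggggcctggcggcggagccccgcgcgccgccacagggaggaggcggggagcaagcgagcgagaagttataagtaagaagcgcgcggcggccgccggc
Klf6 (chr13:5861239-5861488, plus strand): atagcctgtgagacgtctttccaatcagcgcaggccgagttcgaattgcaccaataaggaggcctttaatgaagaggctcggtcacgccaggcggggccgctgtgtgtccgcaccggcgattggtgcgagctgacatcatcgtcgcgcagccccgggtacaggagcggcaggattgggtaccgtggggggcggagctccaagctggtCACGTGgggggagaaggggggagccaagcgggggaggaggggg
Klf11 (chr12:24651121-24651370, plus strand): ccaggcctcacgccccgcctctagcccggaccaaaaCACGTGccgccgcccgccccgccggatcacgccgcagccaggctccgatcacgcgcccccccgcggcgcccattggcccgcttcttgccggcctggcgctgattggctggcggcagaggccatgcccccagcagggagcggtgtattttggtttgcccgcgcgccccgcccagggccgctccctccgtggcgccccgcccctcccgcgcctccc
Klf15 (chr6:90462326-90462575, plus strand): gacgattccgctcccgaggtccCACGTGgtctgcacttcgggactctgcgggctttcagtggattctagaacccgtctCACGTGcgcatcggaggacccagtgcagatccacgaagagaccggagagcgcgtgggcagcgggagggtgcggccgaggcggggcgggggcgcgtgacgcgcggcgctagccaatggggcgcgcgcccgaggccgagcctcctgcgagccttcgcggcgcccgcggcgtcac

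The Klf2 window held 1 match to the MEF2 site, from 118 to 109 bases before the start, and none of the other 7 windows had one. Of all 32851 windows in the table, 2.92% held such a match. The E-box was present in 4 of the 8 windows, those of Klf4, Klf6, Klf11 and Klf15, and in 6.02% of all windows. Klf15 had 2 E-boxes, starting 228 and 172 bases before its start, and its window lies inside the annotated gene, downstream of another start. The GC box GGGCGG was found in 7 of the 8 windows and in 32.7% of all windows, and the CACCC box CCACCC in 3 and in 28.1%. The short cyclic AMP element TGACG was found in 5 of 8 and in 17.8% of all windows. No KLF window held the full element TGACGTCA, the D-box TTATGTAA, the CArG box or the short glucocorticoid receptor element AGAACA. Of all windows 1.55%, 0.819%, 1.47% and 16.1% held these, in that order. AGAACA is only part of the full receptor site, which was not searched. Both strands were searched. Matches of different motifs can overlap, and the KLF windows were 59.6% to 78.4% G or C against a median of 52.4% over all windows. These matches describe letters and no binding was measured.

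The heart was recognisable in all groups, with a mean log2 value of 13.01 to 13.16 over 8 cardiomyocyte markers. TAC-luciferase heart 1 stood apart from hearts 2 and 3 of its group. Across all genes tested it correlated at 0.991 to 0.992 with the HDAC4-NT hearts and at 0.986 to 0.987 with its own group, as a description of these arrays. Calls that change without it are given both ways. The Hdac4 probe set differed by -0.02 log2 units between HDAC4-NT and luciferase after TAC (limma adjusted p 0.959). No source used here gives the probe positions, so this value does not check the delivered fragment.

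With TAC and luciferase, Klf2, Klf4 and Klf6 rose and Klf11 and Klf15 fell against sham. In TAC hearts with HDAC4-NT, Klf11 and Klf15 also fell against sham, while Klf2 and Klf4 stood at -0.09 and -0.08 log2 units and did not pass. Between the TAC groups Klf4 alone of the 10 passed, lower with HDAC4-NT. By limma over all 12597 genes tested, at a Benjamini-Hochberg adjusted p under 0.05, 5 of the 10 KLF genes were called for TAC-luciferase against sham, where 26.1% of all genes were called and 37.2% had an unadjusted p under 0.05. For HDAC4-NT against luciferase after TAC 1 of 10 was called, against 0.254% of all genes, and 4 of 10 had an unadjusted p under 0.05, against 14.3%. For TAC-HDAC4-NT against sham 2 of 10 were called, against 22.8% of all genes, and the same number had an unadjusted p under 0.05, against 33.8%. The groups did not overlap for 5, 2 and 3 of the 10 in these comparisons, against 37.4%, 20.4% and 39.7% of all genes. The p-values measure the spread between these 9 hearts. Comparisons with 1 group in common share its arrays and are not independent.

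**Figure D1:**
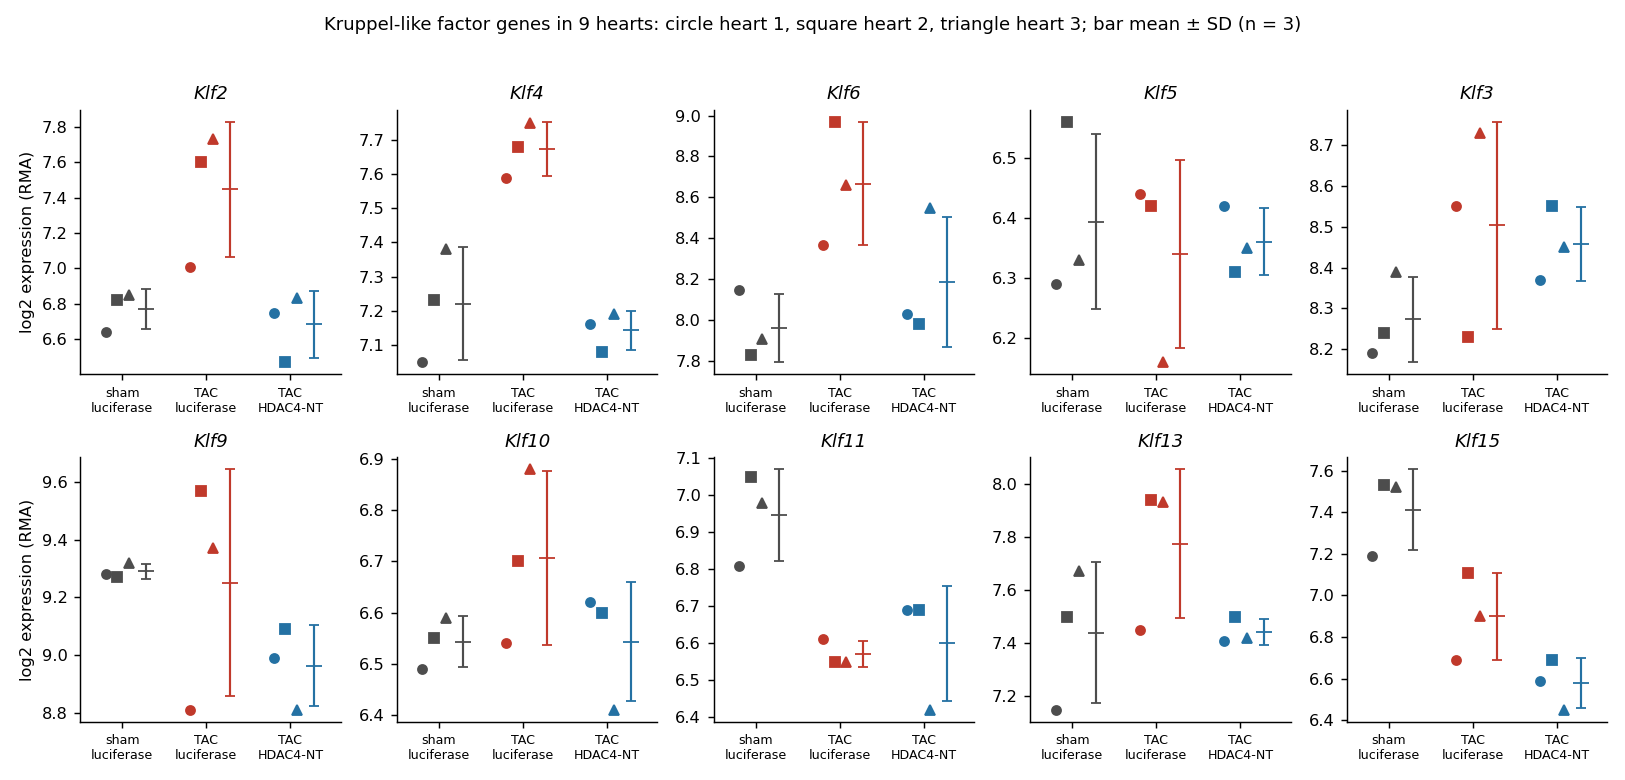
Log2 expression of the 10 KLF genes in each heart, by group, with the group mean ± SD (n = 3) beside the points; each panel has its own axis, which does not start at 0. The 3 TAC-luciferase hearts lie above all hearts of both other groups for Klf2 and Klf4, and all TAC hearts lie below all sham hearts for Klf11 and Klf15.

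Klf2, a flow-induced gene of endothelial cells, had log2 values of 6.64, 6.82 and 6.85 in the sham hearts, 7.01, 7.60 and 7.73 with TAC and luciferase, and 6.75, 6.47 and 6.83 with TAC and HDAC4-NT. Every TAC-luciferase heart was above every heart of the other groups, and heart 1 was the lowest of its group. Klf2 rose 1.60-fold in TAC-luciferase against sham (log2 fold change 0.68, SE 0.17, limma adjusted p 0.0181). It stood at -0.76 log2 units with HDAC4-NT against luciferase (SE 0.17, adjusted p 0.086), which did not pass. Without TAC-luciferase heart 1 that difference was -0.98 and passed (adjusted p 0.00214). Leaving it out removes the TAC-luciferase heart nearest to the HDAC4-NT mean for Klf2, as heart 1 was for 37.6% of all genes. The rise against sham lost its call without sham heart 1 or TAC-luciferase heart 2 or 3 (adjusted p 0.0595 to 0.0673). Against sham, HDAC4-NT hearts differed by -0.09 with a 95% confidence interval of -0.47 to 0.30.

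Klf4, which halts growth in many cell types and is one of the genes used to reprogram cells, had log2 values of 7.05, 7.23 and 7.38 in sham, of 7.59, 7.68 and 7.75 in TAC-luciferase, and of 7.16, 7.08 and 7.19 in TAC-HDAC4-NT hearts. The TAC-luciferase hearts lay above all others without overlap, and heart 1 was only 0.13 below the mean of hearts 2 and 3. Klf4 rose 1.37-fold with TAC and luciferase (0.45, SE 0.08, limma adjusted p 0.00402), and this call was kept in each of the 18 other settings tried. It fell by 0.53 log2 units with HDAC4-NT against luciferase (SE 0.08, adjusted p 0.0458, 95% confidence interval -0.72 to -0.35). That second call is near the threshold. It was lost without any 1 of 7 arrays, the exceptions being sham heart 1 and TAC-luciferase heart 1, and the size then ranged from -0.56 to -0.50 with adjusted p-values up to 0.205. With the clock index as a covariate it was -0.36 (adjusted p 0.675). Between HDAC4-NT and sham Klf4 differed by -0.08 (interval -0.27 to 0.11).

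Klf6, an early response gene of injured tissue, read 8.15, 7.83 and 7.91 in sham, 8.37, 8.97 and 8.66 in TAC-luciferase and 8.03, 7.98 and 8.55 in TAC-HDAC4-NT hearts. The luciferase groups did not overlap, but HDAC4-NT heart 3 lay among the TAC-luciferase hearts and the other two among the sham hearts. Klf6 rose 1.62-fold with TAC and luciferase (0.70, SE 0.18, limma adjusted p 0.0206). The call was lost without sham heart 2 or 3 or TAC-luciferase heart 2 or 3 (adjusted p 0.0519 to 0.0674), without a filter on low values (0.0506) and with the clock index as a covariate (0.069). HDAC4-NT differed from luciferase by -0.48 (SE 0.18, adjusted p 0.275) and from sham by 0.22 (SE 0.18, adjusted p 0.451), so its place between the groups was not resolved.

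Klf5, a regulator of smooth muscle and fibroblast remodelling, did not pass in any comparison. It ranged from 6.29 to 6.56 in sham, from 6.16 to 6.44 in TAC-luciferase and from 6.31 to 6.42 in TAC-HDAC4-NT hearts, and all 3 groups overlapped. Its log2 fold changes were -0.05, 0.02 and -0.03, with no adjusted p under 0.741, and the interval for TAC-luciferase against sham ran from -0.26 to 0.15. Smaller differences than these bounds cannot be resolved with 3 hearts a group.

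Klf3, the CtBP-dependent repressor, read 8.19, 8.24 and 8.39 in sham, 8.55, 8.23 and 8.73 in TAC-luciferase and 8.37, 8.55 and 8.45 in TAC-HDAC4-NT hearts. The groups overlapped, and TAC-luciferase heart 2 sat within the sham range. The difference between TAC-luciferase and sham was 0.23 (SE 0.11, limma adjusted p 0.181), and 0.37 without TAC-luciferase heart 2 (adjusted p 0.019). HDAC4-NT differed from luciferase by -0.05 (interval -0.31 to 0.21). Ctbp2, 1 of the 2 genes for the corepressor, rose by 0.16 with TAC and luciferase (adjusted p 0.0307), and Ctbp1 stood at -0.17 (adjusted p 0.096).

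Among the Sin3-binding members, Klf11, a repressor that transforming growth factor beta (TGF-beta) induces in several cell types, fell in both TAC groups. It read 6.81, 7.05 and 6.98 in sham, 6.61, 6.55 and 6.55 in TAC-luciferase and 6.69, 6.69 and 6.42 in TAC-HDAC4-NT hearts. All 6 TAC hearts were below all sham hearts. Klf11 fell by 0.38 log2 units with luciferase (SE 0.09, limma adjusted p 0.0113), a call kept in all 18 other settings, and by 0.34 with HDAC4-NT (SE 0.09, adjusted p 0.0182). The second call was lost without sham heart 2 or 3 or HDAC4-NT heart 3 (adjusted p 0.0536 to 0.0611) and with the clock covariate (0.0713). The TAC groups differed by 0.03 (interval -0.16 to 0.23).

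Klf10, the founding TGF-beta-inducible early gene, did not pass in any comparison. It ranged from 6.49 to 6.59 in sham, 6.54 to 6.88 in TAC-luciferase and 6.41 to 6.62 in TAC-HDAC4-NT hearts, with overlap throughout. It stood at 0.16 in TAC-luciferase against sham (SE 0.09, limma adjusted p 0.234) and at -0.16 between the TAC groups (adjusted p 0.464). The TGF-beta list around it moved more. Of 15 ligands, receptors, SMADs and feedback genes, 9 rose and 2 fell with TAC and luciferase (median 0.41 against -0.01 over all genes), where 11.2% of all genes rose. With TAC and HDAC4-NT 7 rose and 2 fell, where 10.5% of all genes rose. The ligands Tgfb2 and Tgfb3 rose by 1.92 and 1.25 log2 units with luciferase, and the receptors Tgfbr1 and Tgfbr3 moved by 1.11 and -0.75. Of the 2 falls 1 was left without sham heart 2 or 3 or TAC-luciferase heart 2 or 3. Smad7, a feedback inhibitor, rose by 0.61 with luciferase (adjusted p 0.00426) and stood at 0.16 with HDAC4-NT (adjusted p 0.376). None of the 15 passed between the TAC groups, with 3 higher and 4 lower at an unadjusted p under 0.05 in limma. Without TAC-luciferase heart 1, 3 were higher and 3 lower there.

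Klf9, which glucocorticoids and thyroid hormone induce, was the most uniform member in sham hearts and the most scattered in TAC-luciferase hearts. It read 9.28, 9.27 and 9.32 in sham (SD 0.03), 8.81, 9.57 and 9.37 in TAC-luciferase (SD 0.39) and 8.99, 9.09 and 8.81 in TAC-HDAC4-NT hearts (SD 0.14). All HDAC4-NT hearts were below all sham hearts, and TAC-luciferase hearts lay on both sides. No comparison passed. The difference of HDAC4-NT from sham was -0.32 (SE 0.16, limma adjusted p 0.201), and it passed where the spread came from those 6 arrays alone (adjusted p 0.0165) or without TAC-luciferase heart 1 (0.0171). Between the TAC groups it was -0.28 (adjusted p 0.479), and -0.50 without heart 1 (adjusted p 0.0145). In TAC-luciferase against sham its sign turned without heart 1, from -0.04 to 0.18.

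Klf13, a partner of GATA4 in the developing heart, read 7.15, 7.50 and 7.67 in sham, 7.45, 7.94 and 7.93 in TAC-luciferase and 7.41, 7.50 and 7.42 in TAC-HDAC4-NT hearts. All 3 groups overlapped, and TAC-luciferase heart 1 lay at the level of the HDAC4-NT hearts. Klf13 stood at 0.34 in TAC-luciferase against sham (SE 0.15, limma adjusted p 0.145), and passed at 0.50 without heart 1 (adjusted p 0.0203). It was -0.33 between the TAC groups (adjusted p 0.369) and 0.01 in HDAC4-NT against sham (interval -0.34 to 0.35). Of the genes for Sin3 itself, Sin3a fell by 0.22 log2 units with TAC and luciferase (adjusted p 0.015) and Sin3b did not pass.

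**Figure D2:**
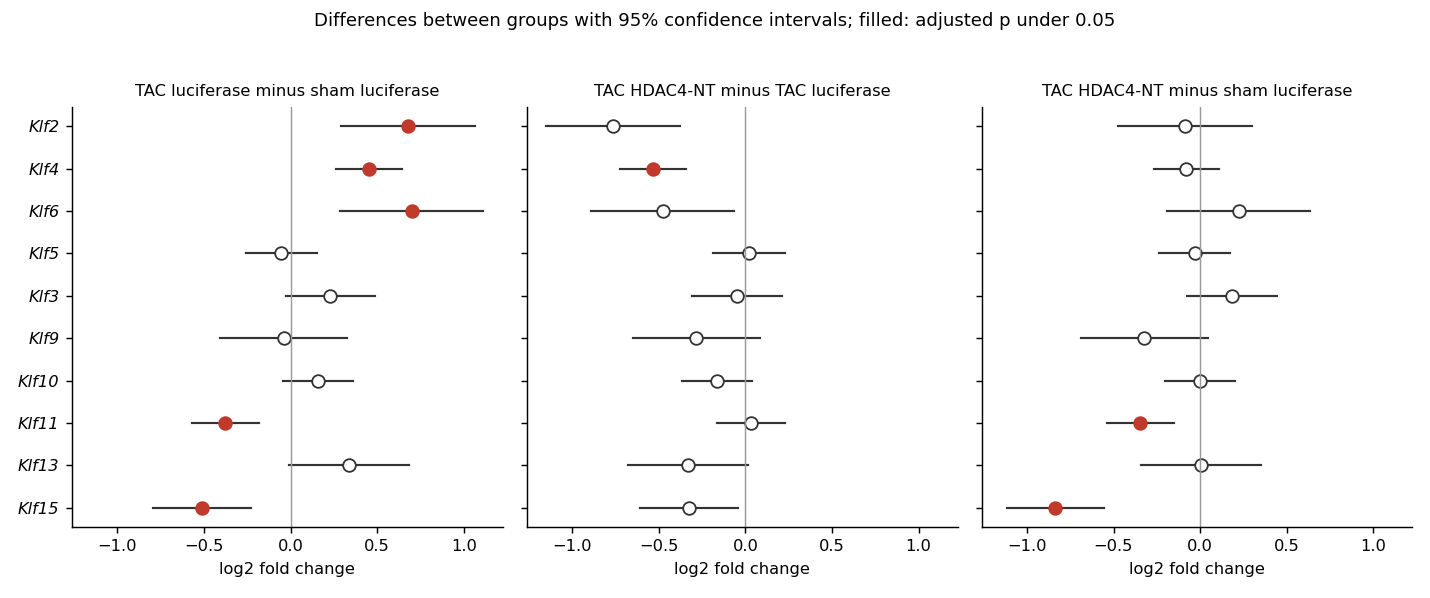
Log2 fold change of each KLF gene in the 3 comparisons, with 95% confidence intervals from the limma fit (3 hearts a group); filled points passed an adjusted p under 0.05. Klf2, Klf4 and Klf6 are to the right of 0 with TAC and luciferase and to the left of 0 for HDAC4-NT against luciferase, where Klf4 alone is filled, and Klf15 is at -0.51 and -0.84 against sham.

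Klf15 showed the largest difference of the 10 in any comparison. It read 7.19, 7.53 and 7.52 in sham, 6.69, 7.11 and 6.90 in TAC-luciferase and 6.59, 6.69 and 6.45 in TAC-HDAC4-NT hearts. Every TAC heart was below every sham heart, and TAC-luciferase heart 1 was level with the highest HDAC4-NT heart. Klf15 fell by 0.51 log2 units with luciferase (SE 0.12, limma adjusted p 0.0154) and by 0.84 with HDAC4-NT, which is 1.78-fold lower than sham (SE 0.12, adjusted p 0.00148). The fall with HDAC4-NT was kept in all 18 other settings, between -0.95 and -0.67. The fall with luciferase lost its call without sham heart 2 or 3 (adjusted p 0.0543 and 0.054). HDAC4-NT against luciferase stood at -0.32 (SE 0.12, adjusted p 0.275, interval -0.61 to -0.04), so a further fall with the fragment was not called.

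Genes described as raised by Klf15 were lower in both TAC groups. All 10 of the list fell with TAC and luciferase, where 14.9% of all genes fell, and all 10 fell with TAC and HDAC4-NT, where 12.3% fell. The medians were -0.58 and -0.57, against -0.01 over all genes in both comparisons. Bckdhb, a subunit of the branched-chain keto acid dehydrogenase, fell by 1.07 and 1.00 log2 units, and Bckdha, its partner subunit, by 0.69 and 0.76. Slc27a1, a fatty acid transporter, fell by 0.95 and 0.89. Kcnip2, the subunit of the transient outward potassium current through which Klf15 was linked to daily rhythms, fell from a log2 mean of 10.39 ± 0.13 in sham to 9.48 ± 0.26 and 9.40 ± 0.15 (SD, n = 3). Bcat2, a branched-chain aminotransferase, fell by 0.48 and 0.63, and Slc2a4, the insulin-responsive glucose transporter, by 0.69 and 0.51. None of the 10 passed between the TAC groups (0 also at an unadjusted p under 0.05 in limma), with values from -0.16 to 0.18. Leaving out 1 array left 9 or 10 of the 10 called with luciferase and 8 to 10 with HDAC4-NT. Much of the list belongs to fuel oxidation, whose fall under TAC was known when it was drawn up, so it is not independent evidence about Klf15.

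**Figure D3:**
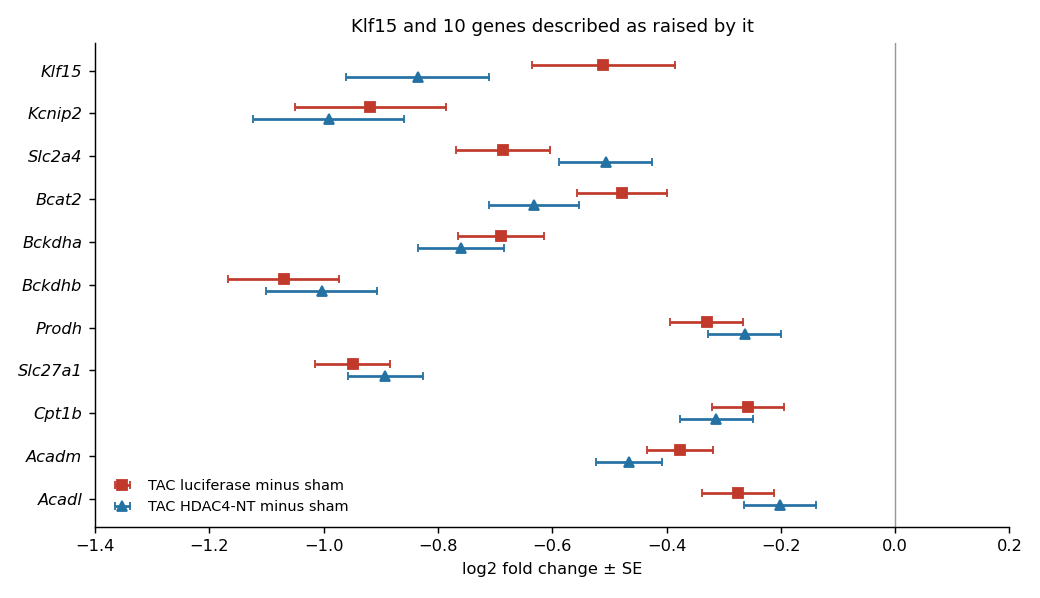
Log2 fold change against sham ± SE of Klf15 and of 10 genes described as raised by it, in both TAC groups (3 hearts a group). All points are below 0; Bckdhb, Slc27a1 and Kcnip2 are lowest in both groups and Klf15 is lower with HDAC4-NT than with luciferase.

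The scatter of the KLF genes lay mostly in the TAC-luciferase group. The SD was largest in that group for 7 of the 10, against 38.3% of all genes tested. The median SD of the 10 was 0.23 there, 0.13 in sham and 0.12 with HDAC4-NT, against 0.08, 0.08 and 0.06 over all genes. Heart 1 was below hearts 2 and 3 for 7 members, above them for Klf5 and Klf11 and between them for Klf3. Over all genes tested, heart 1 lay outside hearts 2 and 3 for 74.9%. For 9 of the 10 it was the TAC-luciferase heart nearest to the HDAC4-NT mean, against 37.6% of all genes. Leaving it out changed the call between the TAC groups for Klf2 and Klf9. Klf6, Klf10, Klf13 and Klf15 were not called either way. Their differences between the TAC groups went from -0.48 to -0.63, -0.16 to -0.25, -0.33 to -0.49 and -0.32 to -0.43 (limma adjusted p 0.0634 to 0.144 without heart 1). Klf3, Klf5 and Klf11 were also not called either way. Leaving out any 1 array, their differences ranged from -0.18 to 0.064, from -0.068 to 0.069 and from -0.014 to 0.12. The largest gaps between heart 1 and the mean of hearts 2 and 3 were -0.65 for Klf9, -0.65 for Klf2 and -0.49 for Klf13.

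Lists of early response and glucocorticoid genes showed the same heart apart. The lists are not separate, as both hold Dusp1, and the glucocorticoid list also holds the clock gene Per1. The mean of 17 immediate early genes, without KLFs, ran from 6.70 to 6.82 in sham and from 6.64 to 6.84 with HDAC4-NT. With TAC and luciferase it was 7.28 in heart 1, 8.06 in heart 2 and 8.13 in heart 3, all above the other groups. Of the 16 tested, 12 rose with TAC and luciferase, where 11.2% of all genes rose (7 without sham heart 1, and up to 15 without another array), among them Btg2 by 1.35 and Atf3 by 2.39 log2 units. Atf3 and Btg2 were at -2.52 and -1.24 with HDAC4-NT against luciferase and passed. Leaving out HDAC4-NT heart 1 or 2 left 1 of them, and 14 of 16 were lower there without TAC-luciferase heart 1. The mean of 10 genes that respond to glucocorticoids, as Klf9 does, ran from 8.60 to 9.10 in sham and from 8.42 to 8.72 with HDAC4-NT. With TAC and luciferase it was 9.57 and 9.68 in hearts 2 and 3, while heart 1, at 8.68, lay within the ranges of both other groups. Of that list Cdkn1a and Sgk1 rose with TAC and luciferase, by 1.81 and 0.61, and Sesn1 fell by 0.28. This was 3 of 10 called, where 26.1% of all genes were called. The 2 rises became 6 without TAC-luciferase heart 1, 1 without any HDAC4-NT heart, and 0 without sham heart 1 or 2 or TAC-luciferase heart 2 or 3. Between the TAC groups none of the 10 passed in limma. There 1 was higher and 6 lower at an unadjusted p under 0.05, against 14.3% of all genes in either direction. Without TAC-luciferase heart 1, 6 passed as lower.

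A clock index was formed from 3 activators (Arntl, Clock, Npas2) less 6 output genes of the clock (Dbp, Per3, Tef, Nr1d1, Nr1d2, Cry2), as a difference of mean log2 values, and also differed between hearts. It ran from -0.81 to -0.12 in sham and from -1.70 to -1.05 with HDAC4-NT. With TAC and luciferase it was -0.74 in heart 1, inside the sham range, and 0.47 and 0.98 in hearts 2 and 3, above all others. Klf9, Klf10 and Klf15 are known to follow the clock, and no source used here gives the hour at which each heart was taken. With the index as a covariate, Klf9, Klf10 and Klf13 changed sign between the TAC groups, to 0.14, 0.045 and 0.17, as did Klf3 and Klf5, to 0.075 and -0.12. Klf15 went from -0.32 to -0.039 and Klf2 from -0.76 to -0.26, and no member was called in that fit (adjusted p 0.675 or more). The index differs between the groups themselves, so clock state and group cannot be told apart by this fit. Within groups, deviations of Klf15 from the group mean correlated with those of Klf13 at 0.85 and of Klf9 at 0.75, over 9 arrays that share these groups, as a description. Other pairs reached similar sizes, with 0.82 for Klf4 and Klf13 and -0.83 for Klf6 and Klf11. Sham heart 1 and TAC-luciferase heart 1, each the lowest of its group for Klf13 and Klf15, also had the lowest clock index of their groups. Both hearts were also the lowest for Klf2, Klf4 and Klf10, so this was not particular to Klf13 and Klf15. Among sham hearts Klf9 was lowest in heart 2. In the HDAC4-NT group heart 1 had the lowest index and the lowest Klf13. Klf2 and Klf4 were lowest in HDAC4-NT heart 2, and Klf10 and Klf15 in heart 3.

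**Figure D4:**
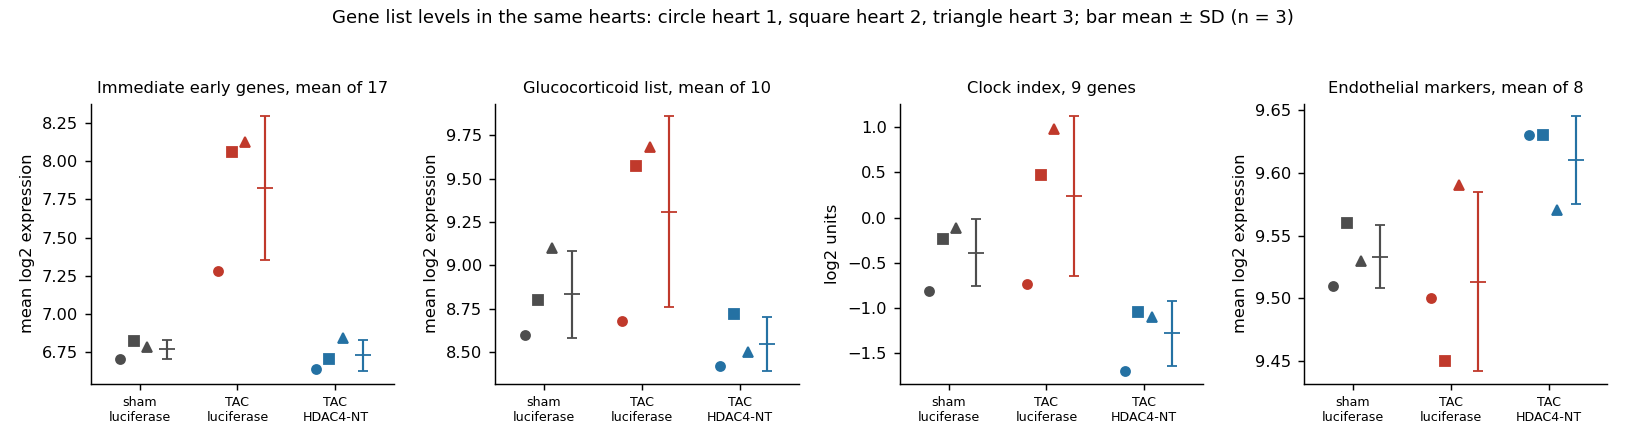
Mean log2 level of the immediate early genes, the glucocorticoid list and the endothelial markers, and the clock index, in each of the 9 hearts with group mean ± SD (n = 3); axes do not start at 0. TAC-luciferase heart 1 is the lowest of its group for both gene lists and the clock index, while the endothelial markers stay between 9.45 and 9.63 in all hearts.

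Genes of the route known to lead to Klf2 and Klf4 in endothelium were called about as often as all genes. Of 11 tested genes for the ERK5 kinases, the MEF2 factors and the class IIa histone deacetylases that repress them, 3 fell and 0 rose with TAC and luciferase, where 26.1% of all genes were called (limma, 1 higher and 5 lower at an unadjusted p under 0.05). Map2k5, the kinase above ERK5, fell by 0.20, Mef2a by 0.25 and Hdac5 by 0.42 log2 units, and 1 of the 3 calls was left without TAC-luciferase heart 3 or HDAC4-NT heart 1. Mapk7, which encodes ERK5, stood at 0.13 in both TAC groups against sham (adjusted p 0.0726 and 0.0794). None of the 11 passed between the TAC groups in limma, with 2 higher and 0 lower at an unadjusted p under 0.05, and 2 passed without TAC-luciferase heart 1. Mef2c rose by 0.35 with TAC and HDAC4-NT against sham, the 1 rise in this list there, and no gene of it rose without sham heart 1 or 3 or HDAC4-NT heart 1 or 3. Protein activity of this route was not measured.

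Of 5 genes described as raised by Klf2 or Klf4 in endothelium, 0 passed in limma in any comparison, with 2 higher and 1 lower at an unadjusted p under 0.05 with TAC and luciferase, 1 and 1 between the TAC groups and 1 and 0 for HDAC4-NT against sham. S1pr1, a sphingosine phosphate receptor, ran from 8.47 to 8.64 in sham and from 8.29 to 8.66 with HDAC4-NT, and read 8.63, 9.81 and 9.70 after TAC with luciferase. Hearts 2 and 3 thus stood above all others and heart 1 lay among the sham hearts (0.81 against sham, adjusted p 0.0516), and 1 gene of this list passed as higher without sham heart 3. Without TAC-luciferase heart 1, 1 passed as higher and 1 as lower against sham, and likewise 1 and 1 between the TAC groups, and without TAC-luciferase heart 2, 1 passed as higher with HDAC4-NT against sham. Nos3, endothelial nitric oxide synthase, stood at 0.23 and Thbd, which encodes thrombomodulin, at 0.31. Of 5 tested genes described as lowered by them, Vcam1, a leukocyte adhesion molecule, rose by 0.58 with TAC and luciferase and F3, which encodes tissue factor, fell by 0.30. Of all genes 11.2% rose and 14.9% fell there. The list held no lower gene without TAC-luciferase heart 2 or 3, and 2 higher without heart 1.

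Endothelial markers went both ways. The mean of 8 such markers was 9.51 to 9.56 in sham, 9.45 to 9.59 in TAC-luciferase and 9.57 to 9.63 in TAC-HDAC4-NT hearts, with all 8 above the filter value, and with TAC and luciferase Cdh5 rose by 0.23 while Kdr and Tie1 fell by 0.68 and 0.22. Against sham with HDAC4-NT Cdh5 rose by 0.31 and Flt1 fell by 0.28. None of the 8 passed between the TAC groups in limma (3 higher and 1 lower at an unadjusted p under 0.05), with values from -0.40 for Esam to 0.47 for Kdr. Fibroblast markers (8.26 to 8.39 in sham, 8.99 to 9.15 and 9.17 to 9.24 in the TAC groups) and macrophage markers (7.10 to 7.28, 7.53 to 7.77 and 7.63 to 7.70) were higher in both TAC groups. With luciferase 5 of 8 and 4 of 8 of them rose, where 11.2% of all genes rose. The mean of 8 smooth muscle and pericyte markers was 8.13 to 8.20 in sham, 8.16 to 8.25 in TAC-luciferase and 8.34 to 8.36 in TAC-HDAC4-NT hearts, so the TAC groups did not overlap. Taken singly, 20.4% of all genes did not overlap there either. Of the 7 markers above the filter, 0 passed between the TAC groups, with 5 above 0 and 2 below. The list was mixed, with Pdgfrb and Cspg4 at 0.45 and 0.43 (limma adjusted p 0.0519 and 0.0532) and Myh11 at -0.04. The part of these markers in the KLF differences was not tested. The mean of 4 atrial markers was 8.07 in TAC-luciferase heart 3, 5.98 and 6.23 in hearts 1 and 2, 6.43 to 7.49 in sham and 5.94 to 6.94 with HDAC4-NT. In whole hearts fewer cells of a type and less RNA per cell cannot be told apart.

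Genes described as targets of Klf5 or Klf6 in the heart were called in both directions with TAC and luciferase against sham. In that comparison Klf6 was called higher and Klf5 was not called, and the part of either in these genes was not tested. With TAC and luciferase 4 of 6 rose, against 11.2% of all genes, among them Thbs4, which Klf6 is described to repress, by 3.66, and Igf1, described downstream of Klf5 in fibroblasts, by 0.62. Ppara and Pdgfa, both described as Klf5 targets, fell by 0.71 and 0.24, and 1 of the 2 falls remained when sham heart 2, sham heart 3 or any TAC-luciferase heart was left out. With HDAC4-NT against sham 4 rose and Ppara fell, and none of the 6 passed between the TAC groups in limma (1 higher and 1 lower at an unadjusted p under 0.05), and 1 was lower without TAC-luciferase heart 1. Thbs4, Tgfb1 and Col1a1 rise with the matrix response to TAC, which was known when the list was drawn up. Among proteins that bind or degrade KLFs, the ubiquitin ligase Wwp1, which targets Klf2 and Klf5, fell by 0.30 with TAC and luciferase. In all 1 of 12 of that list rose and 2 fell there, where 11.2% of all genes rose and 14.9% fell. The rise was lost without sham heart 1 or 2 or TAC-luciferase heart 1 or 2, both falls without sham heart 1, and 1 fall without TAC-luciferase heart 2. Of the 12, 0 passed between the TAC groups (limma, 2 higher and 1 lower at an unadjusted p under 0.05).

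Of the rest of the KLF and SP family, Sp4 was the 1 gene called against sham with luciferase. Of 15 other members measured, 9 passed the filter on low values, and Sp4 stood at -0.23 (adjusted p 0.0133). Of all genes 26.1% were called there. Without TAC-luciferase heart 1 or 3, 1 of the 9 also passed as higher, and without heart 3 a second passed as lower. None passed between the TAC groups (limma, 1 higher and 1 lower at an unadjusted p under 0.05) or with HDAC4-NT against sham (0 at an unadjusted p under 0.05). Klf7, a close relative of Klf6, ran from 8.40 to 8.61 in sham and read 8.61, 8.97 and 8.95 after TAC with luciferase, with heart 1 again at the sham level (0.31, adjusted p 0.0743). Klf12, a CtBP-binding repressor like Klf3, stood at -0.39 (adjusted p 0.0521). Klf1, the erythroid member, lay between 5.64 and 5.89 on all arrays, next to the filter value of 5.66. Whether the 10 genes were called more often than these was not tested.

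The genes closest in pattern to each KLF were found by Pearson correlation of log2 values over the 9 arrays, given as a description because the arrays share 3 groups. Klf2 was closest to Irs2, which encodes an adaptor of the insulin receptor (r 0.979), Enc1 and Nuak2. Klf4 was closest to Rybp (0.962), Zc3h12a, which encodes a ribonuclease that limits inflammation, and Shb. Klf6 was closest to Gfpt1 (0.962), whose product starts the hexosamine pathway, Acsl4 and Cd300ld. The falling genes had neighbours of their own, Elmod3 (0.987), Taf6 and Dguok for Klf11 and Dnajc25 (0.977), Bap1 and Adck1 for Klf15. Klf9 was closest to Spsb1 (0.963) and Klf13 to Cdkn1a (0.952), a cell cycle inhibitor. The remaining leaders were G6pd2 for Klf3 (0.949), Jph4 for Klf5 (0.971) and Hnrnpll for Klf10 (0.912).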

How the data were processed

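Per the labels' protocols, total RNA of each heart was extracted with Trizol and hybridised as biotinylated cRNA. The authors deposited log2 values, which the submitters' processing notes trace to RMA. No source used here gives its version, the probe set definitions or a build. Every array held the same set of values in another order, as quantile normalization leaves them. RMA compresses low values, so small levels understate changes, and no detection p or depth exists, so the number of arrays limits the precision. Of 21225 probe sets 20239 had 1 gene symbol, matched by gene ID to RefSeq (GRCm38.p6), and 986 were unnamed.

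Genes with at least 3 arrays above the 40th percentile of all values (5.66) were tested, 12597 in all. All 10 KLF genes lay above it on every array. A linear model over the 9 arrays was fitted with limma 3.58.1 in R 4.3.3 (6 residual and 3.23 prior degrees of freedom), with Benjamini-Hochberg adjustment over all genes. The series' design text gives 3 animals a group. The script was tested on simulated data. Replicate numbers did not pair the arrays. KLF genes, lists, motifs and tests were chosen with earlier results of these data known. Named were all 10 KLF genes, Hdac4, up to 4 called genes with the smallest p per list, any KLF target or family member, and the 3 genes closest in pattern. Exceptions chosen after their values were seen were Mapk7, Smad7, Ctbp1 and Sin3b. Dusp1 and Per1 were named only as members of lists.

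Other settings were cyclic loess, array weights, no filter or the 60th percentile, a robust prior with a trend, only the groups compared, replicate block, sample code as a random block, clock index as a covariate, and leaving out each array. Counts over lists under these settings were added after seeing the data.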

Additional observations from a re-analysis of the deposited data

Results flagged for a closer look

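In the main fit Klf4 differed between the cargoes in TAC hearts, at an adjusted p near the threshold. No sham group had HDAC4-NT, so whether the TAC effect itself differs between the cargoes could not be tested. The difference between TAC-HDAC4-NT and TAC-luciferase, which is also the difference of their changes against the shared sham group, was -0.53 log2 units (SE 0.08, limma adjusted p 0.0458), and lower in 3 of 3 HDAC4-NT hearts than in any TAC-luciferase heart. The mean level of the immediate early genes moved with it (7.28 to 8.13 in TAC-luciferase and 6.64 to 6.84 in TAC-HDAC4-NT hearts), and its part in the Klf4 difference was not tested.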

How the results depend on the processing

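In TAC-luciferase against sham the count of KLF genes called, 5, ranged from 3 to 6 when 1 array was left out. It stayed at 4 or 5 in the other settings. All genes called went from 3283 to between 2435 and 3230 when 1 was left out. In the other settings they ran from 2549 with only the groups compared to 3988 with the sample code as a random block. Between the TAC groups the count of KLF genes, 1, was 0 without a filter, with the clock covariate and with only the 6 arrays of these groups, 2 with array weights, and 0 to 3 when 1 array was left out. All genes called there, 32, were 10 without a filter, 103 at the 60th percentile, 75 with a trended and robust prior, 827 with array weights, 177 with the sample code as a random block, 0 with the clock covariate (805 at an unadjusted p under 0.05), 0 with only those 6 arrays (1868) and 1 to 697 when 1 was left out, the highest without TAC-luciferase heart 1. For TAC-HDAC4-NT against sham the count of KLF genes, 2, was 1 with the clock covariate and 3 with only the 6 arrays of these groups. It was 1 to 3 when 1 array was left out. All genes called in this comparison, 2872, ranged from 1921 to 3161 when 1 was left out. In the other settings they ran from 1943 with the clock covariate to 3468 with the sample code as a random block. The replicate block gave 106 genes between the TAC groups and the same KLF counts of 5, 1 and 2. Same-numbered arrays correlated at -0.12 to 0.20, so the number is not taken as a pairing. For the random block, the estimated correlation of arrays sharing the first number of the sample code was -0.11, so the code is not taken as a batch.

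Signs that turned belong to differences that were not called. In TAC-luciferase against sham Klf9 was 0.081 with array weights and Klf5 0.0056 with the clock covariate. Between the TAC groups the clock covariate gave 0.075 for Klf3, -0.12 for Klf5, 0.14 for Klf9, 0.045 for Klf10 and 0.17 for Klf13. Against sham with HDAC4-NT it gave 0.21 for Klf2, 0.023 for Klf4 and 0.12 for Klf10, array weights gave 0.013 for Klf10 and -0.020 for Klf13, and cyclic loess 0.020 for Klf10. Leaving out 1 array, Klf5 ranged from -0.10 to 0.036 and Klf9 from -0.20 to 0.18 with TAC and luciferase. Between the TAC groups the ranges were -0.18 to 0.064 for Klf3, -0.068 to 0.069 for Klf5 and -0.014 to 0.12 for Klf11. For HDAC4-NT against sham they were -0.16 to 0.023 for Klf2, -0.17 to 0.00062 for Klf4, -0.082 to 0.050 for Klf5, -0.041 to 0.065 for Klf10 and -0.14 to 0.12 for Klf13. The cause was not tested.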
